A study of Mus musculus with 24 samples.

Results

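The response of the anterior heart field (AHF) to loss of *Tbx1* was set against its response to loss of β-catenin, gene by gene, as the change in *Tbx1 LOF* embryos minus the change in *β-cat LOF* embryos. A positive difference therefore means a gene stood higher after loss of *Tbx1* than after loss of β-catenin, each relative to its own controls. The comparison used 16 of the 24 arrays of the series, 4 per group, and 19938 genes, and it asked which functions diverged between the mutants and which changed the same way in both. *Tbx1 LOF* embryos carried the *Mef2c-AHF-Cre* transgene with 1 floxed *Tbx1* allele and 1 null allele, or with both alleles floxed. *β-cat LOF* embryos carried the same transgene with both *β-catenin* (*Ctnnb1*) alleles floxed. The methods describe the array controls as *Tbx1* f/+ and β-catenin f/+ embryos without Cre, whereas the sample annotation names wild type littermates and littermates with Cre and 1 floxed allele, so the control genotype is not settled. The tissue was the pharyngeal apparatus from the second to the sixth arch, dissected at E9.5 from embryos of 19 to 21 somite pairs and pooled before RNA isolation, and it also holds cells in which the Cre is not active. The *Tbx1* lines were kept on a Swiss Webster background and the floxed β-catenin line on a mixed one, so each experiment was compared first with its own controls.

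The AHF is a population of mesodermal progenitors behind the forming heart that adds the right ventricle and outflow tract to the heart tube. *Tbx1* encodes a T-box transcription factor of pharyngeal progenitors, where it is known for holding back differentiation and for keeping FGF signals on. β-catenin is the transcriptional effector of canonical Wnt signalling, which is more active toward the posterior heart field, the source of the inflow region. *Tbx1* is the gene most closely tied to the heart defects of 22q11.2 deletion syndrome.

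Values are RMA log2 intensities, so 1 unit is a doubling. Each array is called by its group and replicate number, and values in a list of 4 follow replicates 1 to 4. Control replicate 2 of the β-cat experiment stood apart: its mean over the 14 heart tube markers was 2.27 above the 16-array average, the highest of any array, and results are given with it and without it. Arrays numbered 1 and 2 also differed from those numbered 3 and 4 throughout, so changes within each set are printed where they matter. Replicate 2 of *Tbx1 LOF* had an *Xist* value of 6.52, against 9.98 to 12.43 in the other 15 arrays, and the highest value of the Y-linked gene *Kdm5d* (9.74). The other 3 *Tbx1 LOF* arrays read 8.03, 7.68 and 8.43 for *Kdm5d*, against 8.78 to 9.59 in the *Tbx1* controls. The mean of the 4 sex chromosome genes lay at −0.73 to −0.15 in *Tbx1 LOF* and 0.15 to 0.68 in its controls, which did not overlap, and the 2 β-cat groups overlapped. That mean joins *Xist* with the Y-linked *Kdm5d*, *Uty* and *Eif2s3y*. *Xist* and Y-linked genes run oppositely with sex, so the mean does not measure sex balance. In each Y-linked gene *Tbx1 LOF* replicate 2 lay above all *Tbx1* controls and the other 3 mutant arrays below them. The part of the sex of the pooled embryos in any result was not tested. Nothing states whether replicates are separate litters, so p-values measure the spread between these pools.

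The targeted genes were examined first. In *Tbx1 LOF* alone, an adjusted p under 0.05 in limma was reached by *Aqp7*, which was higher (1 gene, 0.00502%), and by *Prkcb* and *Tbx1*, which were lower (2 genes, 0.01%). In *β-cat LOF* 0 genes reached it (lowest adjusted p 0.935). At an unadjusted p under 0.05 in limma, 404 genes were higher and 404 lower in *β-cat LOF* (2.03% of all genes each). *Tbx1* read 10.98, 11.28, 11.43 and 11.40 in *Tbx1 LOF* and 11.91, 11.77, 11.98 and 11.99 in its controls, so the groups did not overlap. It read 11.66, 11.94, 11.83 and 11.81 in *β-cat LOF* against 11.75, 11.51, 11.82 and 11.87 in those controls, which overlapped. The *Tbx1 LOF* change was −0.64 (SE 0.10, limma adjusted p = 0.0446) and the *β-cat LOF* change 0.08. *Ctnnb1* differed little, by −0.04 after loss of *Tbx1* and −0.03 in *β-cat LOF*. Whether its probes lie in the deleted exons is not known here, so its value does not check the deletion. The dissection label was compared with the 20 measured genes of the AHF and pharyngeal progenitor list, in place of a shorter planned set. On every array 18 of the 20 lay above the median gene, *Tbx1*, *Isl1* and *Eya1* among them. *Wnt11* lay on both sides of it, and *Fgf3* lay below it at 7.68 to 8.24. The heart muscle gene *Tnnt2* also stood high, at 11.34 to 13.33, so a level above the median gene does not verify the dissection.

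No gene passed an adjusted p of 0.05 for the difference between the changes (limma, 0 of 19938, 0%, lowest adjusted p 0.203). At an unadjusted p under 0.05, 522 genes differed toward *Tbx1 LOF* (2.62%) and 433 the other way, toward *β-cat LOF* (2.17%). Adding the 1.5-fold limit that the study set for the genes it plotted left 203 toward *Tbx1 LOF* (1.02%) and only 21 the other way (0.105%). All genes called different below met the unadjusted threshold only, unless an adjusted p is given. Without control replicate 2 of the β-cat experiment 9 genes passed at an adjusted p of 0.0222 to 0.0462 (0.0451%), all toward *Tbx1 LOF*, and 122 (0.612%) and 16 (0.0802%) met the unadjusted threshold with the fold limit. Leaving out another single array gave 39 genes without control replicate 4 of the β-cat experiment, 2 without *Tbx1 LOF* replicate 2 and 0 in each other case, and a fit of all 24 arrays gave 10. Of the 203 genes, 118 were also among the 122, and all 16 were among the 21. Each of the 9 encodes a protein of muscle or of the heart chambers except *Cck*, a peptide hormone precursor: *Smpx*, *Apobec2*, *Cryab*, *Bves*, *Lrrc10*, *Myl3*, *Nppb* and *Des*.

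The 2 changes were opposite in sign in all of the 203 genes, which is a description, since choosing genes by a large difference favours opposite signs. In 68 both changes had an unadjusted p under 0.05, in 38 the *Tbx1 LOF* change alone, in 70 the *β-cat LOF* change alone, and in 27 neither. Their median changes were 0.43 after loss of *Tbx1* and −0.51 in *β-cat LOF*, and the latter was −0.26 without control replicate 2. Among the 21 genes, 20 had opposite signs, with medians of −0.52 and 0.30. Over all genes and without the fold limit, 83 stood higher after loss of *Tbx1* but lower after loss of β-catenin at an unadjusted p under 0.05 in each (0.416%), 17 the reverse (0.0853%), 8 higher in both (0.0401%) and 7 lower in both (0.0351%). Without control replicate 2 these counts were 74 (0.371%), 10 (0.0502%), 7 (0.0351%) and 9 (0.0451%). Other single arrays moved them further: the 83 became 33 without *Tbx1* control replicate 4, 37 without *Tbx1 LOF* replicate 1, 53 without *β-cat LOF* replicate 4 and 145 without β-cat control replicate 4. The 17 became 50 without *Tbx1 LOF* replicate 2 and 44 without its replicate 3. With the replicate number as a block the 4 counts were 155, 17, 14 and 18.

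Across the 19938 genes, which are not independent replicates, the changes correlated at a Pearson r of −0.398 and a Spearman rho of −0.0854. Without control replicate 2 these were −0.228 and 0.000623, so the rank relation was nearly absent and the negative r lay in the genes of large change. Within arrays 1 and 2 r was −0.414, and within arrays 3 and 4 it was 0.332 with a rho of 0.503, the opposite sign. These correlations are descriptions. They share the array platform and the normalization but no arrays between the experiments.

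**Figure D1:**
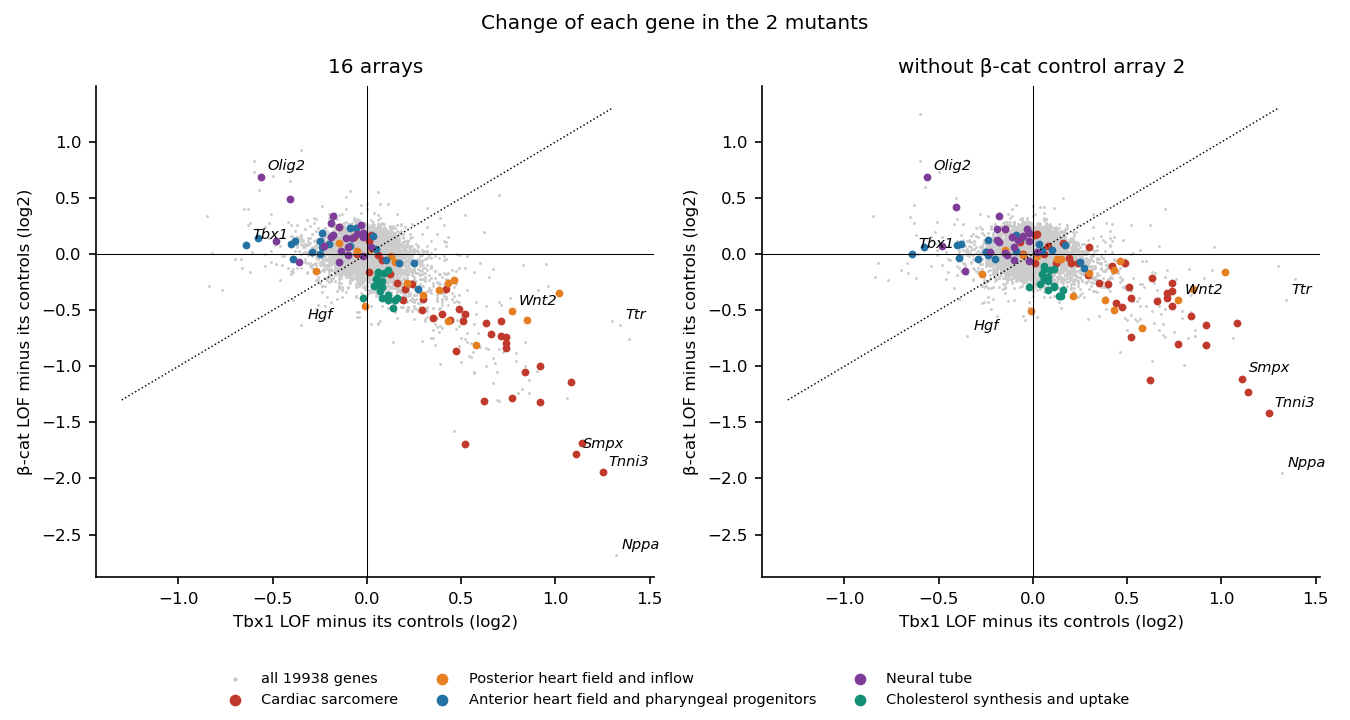
Change of each gene in *Tbx1 LOF* (x axis, log2) against its change in *β-cat LOF* (y axis, log2), each mutant mean minus its own control mean, for 16 arrays (left) and without β-cat control array 2 (right). Grey points are all 19938 genes, coloured points are members of 5 gene lists, and the dotted line marks equal changes. Sarcomere genes run to the lower right in both panels, and *Nppa* moves from −2.68 to −1.95 on the y axis when the array is left out.

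Contractile and chamber genes made up the largest divergence. Of 39 sarcomere genes, 29 differed toward *Tbx1 LOF* and 1, *Mybpc1*, the other way, against 2.62% and 2.17% of all genes, with a median difference of 1.05 against −0.03 over all genes. The sarcomere medians were 0.49 after loss of *Tbx1* and −0.59 in *β-cat LOF*, and 19 of the 39 had an unadjusted p under 0.05 in both experiments with opposite signs. Without control replicate 2 the median difference was 0.84 and 27 of 39 differed toward *Tbx1 LOF*, against 2.01% of all genes in that setting, and 0 the other way, against 1.53%.

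*Nppa*, which encodes the atrial natriuretic peptide of the chambers, had the largest difference of the named genes. It read 9.55, 9.83, 10.12 and 9.40 in *Tbx1 LOF* and 8.44, 8.75, 8.73 and 7.71 in its controls. It read 8.47, 7.78, 7.78 and 7.54 in *β-cat LOF* against 11.23, 12.77, 9.48 and 8.83 in those controls. All 4 *Tbx1 LOF* arrays lay above and all 4 *β-cat LOF* arrays below their controls, and the β-cat controls spread most. The changes were 1.32 and −2.68, a difference of 4.0 (SE 0.81, 16-fold, 95% interval 2.28 to 5.72), and 3.27 (SE 0.56, adjusted p = 0.0514) without control replicate 2.

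*Tnni3*, cardiac troponin I, read 10.77, 10.57, 10.99 and 10.29 in *Tbx1 LOF* against 9.41, 9.49, 9.92 and 8.80 in its controls. It read 9.80, 9.26, 9.09 and 8.97 in *β-cat LOF* against 11.65, 12.75, 10.65 and 9.82 in controls. Neither pair of groups overlapped, although β-cat control replicate 4 stood only 0.02 from the nearest mutant array in a gene whose controls spread over almost 3 units. The difference was 3.19 (SE 0.61, 9.1-fold), and 2.67 (SE 0.46, adjusted p = 0.0514) without control replicate 2. *Smpx*, a small protein of striated muscle, had a difference of 2.89 (SE 0.63) and passed at 2.22 (SE 0.31, adjusted p = 0.0222) without that array, which read 11.96 against 8.89 to 10.01 in the other β-cat controls.

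*Myl4*, the atrial essential myosin light chain, had the smallest p among the genes toward *Tbx1 LOF*. It read 13.25, 13.08, 13.29 and 13.16 in *Tbx1 LOF* and 12.57, 12.76, 12.87 and 12.49 in its controls. It read 12.89, 12.40, 12.90 and 12.80 in *β-cat LOF* against 13.22, 13.71, 13.20 and 12.99 in those controls. Both pairs were separate, the changes were 0.52 and −0.53, and the difference was 1.05 (SE 0.19). The other genes named by p were *Cck* (1.05), *Bves*, a membrane protein of striated muscle (1.31), *Tecrl*, linked to cardiac calcium handling (2.04), *Ecm1*, an extracellular matrix protein (0.78), *Myl1*, a myosin light chain (1.93), *Crip1*, a LIM-domain protein (1.49), *Tnnc1*, cardiac troponin C (1.91), and *Myl7*, the atrial regulatory light chain (1.31). *Cck* was separate in β-cat only: it read 7.12, 7.26, 7.25 and 7.40 in *β-cat LOF* against 7.86, 8.59, 7.73 and 7.93 in controls, while its *Tbx1 LOF* range of 7.57 to 7.87 met the control range of 7.35 to 7.61.

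The 250 bases before the start of 3 of these genes are shown because they are the 2 with the largest difference and the 1 of the named 12 with a CArG box, the site of serum response factor. They were chosen after the values were seen. Sequences are RefSeq promoter windows on GRCm38.p6, 5′ to 3′ along the gene, with capitals marking a T-box half-site (AGGTGTGA), an E-box (CAGCTG) or a CArG box on either strand.
*Nppa*, chr4:148000472-148000721, plus strand: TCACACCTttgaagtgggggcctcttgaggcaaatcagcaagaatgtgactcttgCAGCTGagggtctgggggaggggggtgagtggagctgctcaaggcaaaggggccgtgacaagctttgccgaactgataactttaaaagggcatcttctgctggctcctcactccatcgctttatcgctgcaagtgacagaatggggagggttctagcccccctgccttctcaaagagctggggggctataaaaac
*Tnni3*, chr7:4522529-4522778, minus strand: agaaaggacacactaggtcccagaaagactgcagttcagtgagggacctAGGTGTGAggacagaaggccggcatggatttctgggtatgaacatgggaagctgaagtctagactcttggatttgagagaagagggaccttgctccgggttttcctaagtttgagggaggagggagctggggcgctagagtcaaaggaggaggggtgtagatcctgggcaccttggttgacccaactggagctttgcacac
*Myl7*, chr11:5898783-5899032, minus strand: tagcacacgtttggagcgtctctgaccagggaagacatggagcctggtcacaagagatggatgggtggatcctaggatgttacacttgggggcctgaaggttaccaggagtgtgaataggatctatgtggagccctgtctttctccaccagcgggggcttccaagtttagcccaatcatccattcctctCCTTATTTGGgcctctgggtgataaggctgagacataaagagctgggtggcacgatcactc
The half-site lay 250 to 243 bases before the *Nppa* start, on the strand opposite to the gene, and 201 to 194 bases before the *Tnni3* start. Windows were found for 160 of the 203 genes and for 32 of the 39 sarcomere genes, counting alternative starts as windows of their own. The CArG box was in 11 of 199 windows of the 203 genes (5.53%) and 8 of 43 sarcomere windows (18.6%), against 1.63% of all 32851 windows. The MEF2 site was in 7.54% and 14% against 3.19%, and the TCF/LEF site CTTTGAT in 2.51% and 2.33% against 3.73%. The T-box half-site was in 1.01% and 2.33% against 1.28%, the GATA site AGATAA in 16.1% and 16.3% against 11.2%, and the E-box in 24.6% and 32.6% against 16.3%. A match of letters is a description and shows no binding.

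Genes of calcium handling and conduction followed the sarcomere genes, with 12 of 29 toward *Tbx1 LOF*, 0 the other way and a median difference of 0.40. *Slc8a1*, the sodium-calcium exchanger, differed by 2.34 (SE 0.57), *Ryr2*, the calcium release channel, by 1.74 (SE 0.51) and *Hcn4*, the pacemaker channel, by 1.14 (SE 0.33). Their median fell to 0.25 without control replicate 2, with 12 still different. Of 13 chamber genes 7 differed toward *Tbx1 LOF*, at a median of 0.74, or 0.53 without that array, *Bmp10*, a ligand of the trabecular myocardium, among them (1.62, SE 0.56, and 1.03 without). Muscle genes outside the sarcomere ran the same way: *Ppargc1a*, a regulator of mitochondrial genes, differed by 1.43 and *Cox7a1*, a muscle subunit of cytochrome oxidase, also by 1.43, although only 4 of the 37 genes of that list differed. *Hspb7* and *Hspb1*, small heat shock proteins of muscle, were the only 2 of 26 genes of the unfolded protein and heat shock list to differ, at 1.84 and 1.55.

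Cardiac transcription factors differed less in size. Of 25, 13 differed toward *Tbx1 LOF* and 0 the other way, with a median of 0.32, or 0.28 without control replicate 2. Here the *Tbx1 LOF* side was larger, with medians of 0.20 and −0.08, and 12 of the 25 had an unadjusted p under 0.05 in *Tbx1 LOF* against 3 lower in *β-cat LOF*, where 1.58% of all genes were higher in the first and 2.03% lower in the second. *Gata4*, a zinc finger activator of heart genes, read 11.65, 10.92, 11.12 and 11.06 in *Tbx1 LOF* and 10.22, 10.79, 10.23 and 10.09 in its controls. It read 10.75, 10.19, 9.95 and 9.82 in *β-cat LOF* against 10.87, 11.62, 10.71 and 9.89 in controls. The first pair was separate and the second overlapped, and the difference was 1.45 (SE 0.40). *Smarcd3*, a chromatin remodelling subunit of the heart (0.79), *Gata5* (0.65), *Tbx20* (1.16) and *Hand2* (0.33) differed too, whereas *Mef2c* (0.15) and *Isl1* (−0.13) did not pass. *Srf*, the factor that binds CArG boxes, was at 0.06.

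The heart tube markers gave no separate reading. Those that differed were *Tnni3*, *Nppa*, *Myl7*, *Smpx*, *Myl3*, *Myh6*, *Nppb*, *Bmp10* and *Myl2*. Each is also a member of the sarcomere or the chamber list above. Of 14, 9 differed toward *Tbx1 LOF* with a median of 1.83, or 1.18 without control replicate 2, and their list mean lay at −0.05 to 0.29 in *Tbx1 LOF*, −0.70 to −0.26 in its controls, −0.54 to −0.16 in *β-cat LOF* and 0.02 to 2.27 in the β-cat controls. Arrays have no zero, so none of these markers could be called absent. The dissection is described as leaving out the heart tube. The share of heart muscle in each pool was not tested, and in pooled tissue more cells of a type and more RNA per cell cannot be told apart.

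The difference can also be read between the experiments, as mutant against mutant and control against control. For the sarcomere list *Tbx1 LOF* stood 0.29 above *β-cat LOF* in the median, while the *Tbx1* controls stood 0.82 below the β-cat controls, or 0.48 below without control replicate 2. Most of the sarcomere divergence thus lay between the 2 control groups, whose list means were −0.57 to −0.23 and −0.08 to 1.37. Over the 203 genes the medians were 0.45 between mutants and −0.51 between controls, or −0.27 without that array. Over the 21 genes they were −0.33 between mutants and 0.59 between controls, or 0.55 without that array. Strain background and experiment cannot be told apart in such values. Within arrays 1 and 2 the sarcomere median of the difference was 1.5, beside median changes of 0.46 in *Tbx1 LOF* and of −1.04 for β-cat, and within arrays 3 and 4 it was 0.70, beside 0.52 and −0.14. The *Tbx1 LOF* side was close in both sets of arrays and the *β-cat LOF* side was not.

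**Figure D2:**
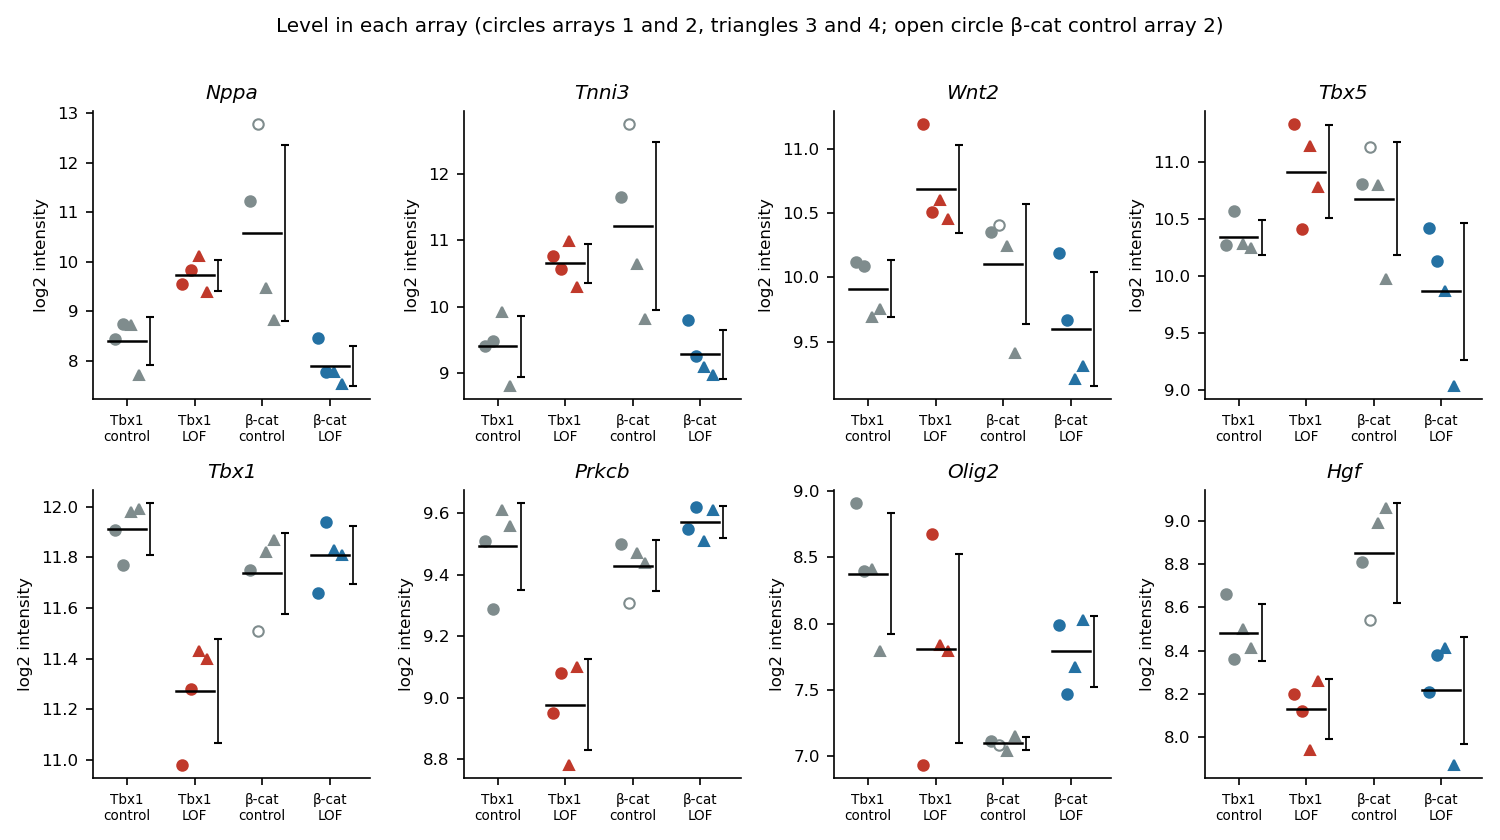
Log2 intensity (y axis) of 8 genes in each array of the 4 groups (x axis), with circles for arrays 1 and 2, triangles for arrays 3 and 4, an open circle for β-cat control array 2, a line at the group mean and a bar of ±1 SD (n = 4). *Nppa* and *Tnni3* separate mutants from controls in opposite directions, *Tbx1* and *Prkcb* are low in *Tbx1 LOF*, and *Hgf* is below controls in both mutants.

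Posterior heart field and inflow genes diverged in another way. Of 18, 8 differed toward *Tbx1 LOF* (*Wnt2*, *Tbx5*, *Shox2*, *Gata4*, *Sfrp5*, *Gata6*, *Wt1* and *Osr1*) and 1, *Nr2f1*, the other way, with a median of 0.57. *Tbx5*, *Gata4* and *Gata6* were also counted among the cardiac transcription factors. Leaving out control replicate 2 gave 0.51, with 9 toward *Tbx1 LOF*. The list was larger in arrays 3 and 4 (0.69) than in arrays 1 and 2 (0.31), the reverse of the sarcomere genes. Between mutants the list median was 0.47 and between controls −0.05, so the 2 control groups stood close together here.

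*Wnt2*, a ligand of the posterior field, read 11.19, 10.51, 10.60 and 10.45 in *Tbx1 LOF* and 10.12, 10.09, 9.69 and 9.75 in its controls. It read 10.19, 9.67, 9.21 and 9.31 in *β-cat LOF* against 10.35, 10.41, 10.24 and 9.41 in controls. The *Tbx1* groups were separate and the β-cat groups overlapped, with mutant replicates 1 and 2 above control replicate 4. The difference was 1.29 (SE 0.33), and 1.18 (SE 0.34) without control replicate 2. *Tbx5*, a T-box factor of the inflow and atria, read 11.33, 10.41, 11.14 and 10.78 in *Tbx1 LOF* and 10.27, 10.57, 10.28 and 10.24 in controls, which met at 1 array. It read 10.42, 10.13, 9.87 and 9.03 in *β-cat LOF* against 10.81, 11.13, 10.80 and 9.97 in controls, and the difference was 1.39 (SE 0.38). *Sfrp5*, a secreted Wnt antagonist of the inflow region, was 1.02 after loss of *Tbx1* and −0.35 in *β-cat LOF*, a difference of 1.37 (SE 0.40), with unadjusted p over 0.05 on the β-cat side.

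Liver and gut markers differed in the same direction as these posterior genes. Of 17, 7 differed toward *Tbx1 LOF* and 0 the other way, with a median of 0.47, or 0.33 without control replicate 2. Within arrays 1 and 2 the median was 0.50 and within arrays 3 and 4 it was 0.32, whereas the posterior list was larger in arrays 3 and 4. *Ttr*, transthyretin, read 10.08, 9.43, 8.51 and 9.99 in *Tbx1 LOF* against 8.30, 8.92, 7.90 and 7.55 in its controls, and 8.24, 7.98, 7.49 and 7.33 in *β-cat LOF* against 8.45, 9.04, 8.62 and 7.44. *Tbx1 LOF* replicate 3 lay inside its control range, and the β-cat groups overlapped. The difference was 1.96 (SE 0.52), with *Afp*, alpha-fetoprotein, at 2.15 (SE 0.72) and *Rbp4*, a retinol carrier, at 1.23 (SE 0.40). The list mean lay at −0.02 to 0.56 in *Tbx1 LOF*, −0.26 to 0.17 in its controls, −0.32 to −0.09 in *β-cat LOF* and −0.32 to 0.40 in the β-cat controls. Mesothelial markers had 2 of 11 different, *Podxl* and *Wt1*, the latter also on the posterior list, and a median of 0.31, or 0.20 without *Tbx1 LOF* replicate 1. The part of the dissection border in the posterior result was not tested.

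Cholesterol genes leaned one way. All 18 had a positive difference, with a median of 0.35, or 0.29 without control replicate 2, but only 3 passed the unadjusted threshold: *Pmvk*, *Insig1* and *Hmgcs1*. Their median change was 0.08 after loss of *Tbx1* and −0.29 in *β-cat LOF*. There 10 of 18 were lower at an unadjusted p under 0.05 over 16 arrays, against 2.03% of all genes. Without control replicate 2 this was 1 of 18 (median −0.23), against 198 of all 19938 genes. With 1 array left out, the median difference was lowest, at 0.25, without *β-cat LOF* replicate 4. *Insig1*, a sterol sensor, read 11.41, 10.92, 10.92 and 10.51 in *β-cat LOF* against 11.39, 11.47, 11.58 and 10.95 in controls, and 11.29, 11.22, 11.47 and 11.20 in *Tbx1 LOF* against 11.22, 11.16, 11.18 and 11.03. The β-cat groups overlapped, and the difference was 0.56 (SE 0.21). *Hmgcs1*, an early enzyme of the pathway, differed by 0.47 (SE 0.22). Genes of 1 pathway measured in the same arrays are not independent, and the list mean of *β-cat LOF* ran from −0.46 to 0.20.

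Of 31 glycolysis and hypoxia genes 7 differed toward *Tbx1 LOF*, at a median of 0.16, and without control replicate 2 there were 4, at a median of 0.09. *Adm*, adrenomedullin, differed by 0.91 (SE 0.26) and *Bnip3*, a mitochondrial protein induced by low oxygen, by 0.47. Of 20 imprinted genes 6 differed the same way, at a median of 0.13. *Plagl1*, a zinc finger factor and the leading gene of that list, read 12.28, 11.88, 11.89 and 11.94 in *Tbx1 LOF* against 11.62, 11.78, 11.53 and 11.55, and 11.71, 11.54, 11.61 and 11.57 in *β-cat LOF* against 11.84, 12.23, 11.83 and 11.62. The *Tbx1* groups were separate, and the β-cat groups met at 1 array. The difference was 0.65 (SE 0.16). Of 31 BMP genes 7 differed toward *Tbx1 LOF* and 3 the other way, with ligands *Bmp5* (0.75), *Bmp2* (0.71) and *Bmp10* among the former and *Id4*, *Fst* and *Grem1* the latter.

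In the direction of *β-cat LOF* lay genes of the pharyngeal progenitors and, below, of the neural tube. Of 20 AHF and pharyngeal progenitor genes, 9 differed toward *β-cat LOF* (*Tbx1*, *Gfra1*, *Nrg1*, *Gbx2*, *Six2*, *Eya1*, *Fgf10*, *Fgf3* and *Cxcr4*) and 2, *Hand2* and *Nkx2-5*, toward *Tbx1 LOF*. The list median was −0.29, with medians of −0.22 after loss of *Tbx1* and 0.07 in *β-cat LOF*, so the divergence lay mostly on the *Tbx1* side, where 9 of 20 were lower against 1.4% of all genes. *Tbx1* itself is a member, and its mutation fixes its direction. Without control replicate 2 the median was −0.24 with 7 toward *β-cat LOF*, and it was −0.28 within arrays 1 and 2 and −0.23 within arrays 3 and 4.

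*Prkcb*, protein kinase C beta, had the smallest p of all genes for the difference. It read 8.95, 9.08, 8.78 and 9.10 in *Tbx1 LOF* and 9.51, 9.29, 9.61 and 9.56 in its controls. It read 9.55, 9.62, 9.51 and 9.61 in *β-cat LOF* against 9.5, 9.31, 9.47 and 9.44 in controls, so both pairs were separate, the second by 0.01. The changes were −0.52 (SE 0.08, adjusted p = 0.0446) and 0.14, and the difference was −0.66 (SE 0.11), or −0.62 without control replicate 2 (adjusted p = 0.0611).

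*Gfra1*, the co-receptor for the growth factor GDNF, read 9.51, 9.78, 9.87 and 9.82 in *Tbx1 LOF* and 10.32, 10.25, 10.31 and 10.40 in controls. It read 10.26, 10.58, 10.17 and 10.15 in *β-cat LOF* against 10.24, 9.93, 10.15 and 10.29 in controls, so the *Tbx1* groups alone were separate. The difference was −0.71 (SE 0.14), and *Ret*, its signalling partner, differed by −0.55 (SE 0.16). *Nrg1*, a ligand of ErbB receptors, read 8.86, 8.93, 8.80 and 8.98 against 9.31, 9.20, 9.30 and 9.34 in the *Tbx1* experiment, and 8.87, 9.25, 9.23 and 9.06 against 8.98, 9.01, 8.97 and 9.11 in the β-cat experiment. Its difference was −0.48 (SE 0.11), while the receptor gene *Erbb4* differed by 1.73 (SE 0.46) and *Erbb3* by −0.29 (SE 0.11).

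FGF genes shifted less and evenly. Of 29, 7 differed toward *β-cat LOF* (*Fgf9*, *Fgf1*, *Fgf10*, *Fgf3*, *Spry2*, *Fgf15* and *Spry1*) and 0 toward *Tbx1 LOF*, with a median of −0.18 and −0.16 without control replicate 2, when 4 still differed. Within arrays 1 and 2 the median was −0.18, and within arrays 3 and 4 it was −0.19. *Fgf10* and *Fgf3* were also counted among the progenitor genes above. *Fgf10* read 9.54, 9.45, 9.03 and 9.19 in *Tbx1 LOF* against 9.60, 9.73, 9.78 and 9.67, and 9.47, 9.67, 9.47 and 9.57 in *β-cat LOF* against 9.56, 9.63, 9.5 and 9.65. Its change was −0.39 and −0.04, a difference of −0.35 (SE 0.13). *Fgf8*, at −0.29 (SE 0.21), did not pass.

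Of 22 guidance genes 7 differed toward *β-cat LOF*, with *Slit1* (−1.05, SE 0.29), *Cxcl12* (−0.39) and *Cxcr4* among them besides *Gfra1* and *Ret*, and 1, *Slit3*, the other way. *Gfra1* and *Cxcr4* were also counted among the progenitor genes. Retinoic acid genes had 4 of 18 toward *β-cat LOF* (*Rxrg*, *Cyp26c1*, *Crabp2* and *Crabp1*) and 1, *Rbp4*, toward *Tbx1 LOF*, at a median of −0.11. Without control replicate 2 there were 2 toward *β-cat LOF*, at a median of −0.06. Notch genes had 3 of 21 (*Lfng*, *Heyl* and *Hes5*) and branchiomeric muscle genes 3 of 13 (*Tlx1*, *Myf5* and *Myog*), all toward *β-cat LOF*, and 2 each without control replicate 2. The rest of the 12 genes named by p in this direction were *Rxfp2*, a relaxin family receptor (−0.79), *Atp2a3*, a calcium pump (−0.59), *Adh1*, an alcohol dehydrogenase (−0.89), *Zic2* (−1.18), *Olig2* (−1.26), *Fam181a* (−0.60), *Foxi3*, a forkhead factor of the placodes (−0.62), and *Ildr2* (−0.66).

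Neural tube markers moved with this group. Of 22, 7 differed toward *β-cat LOF* (*Olig2*, *Sox2*, *Pax6*, *Neurog2*, *Hes5*, *Sox3* and *Sox1*), all 22 had a negative difference, and the median was −0.27, or −0.23 without control replicate 2. Between mutants the list median was −0.03 and between controls 0.18, or 0.19 without that array. In the median, the divergence thus lay mostly between the 2 control groups. *Olig2*, a factor of ventral neural progenitors, read 6.93, 8.68, 7.84 and 7.79 in *Tbx1 LOF* and 8.91, 8.40, 8.41 and 7.79 in its controls. It read 7.99, 7.47, 7.67 and 8.03 in *β-cat LOF* against 7.11, 7.08, 7.04 and 7.15 in controls. The β-cat groups were separate and the *Tbx1* groups were not, with a difference of −1.26 (SE 0.38). The list mean lay at −0.31 to 0.35 in *Tbx1 LOF*, 0.02 to 0.33 in its controls, −0.04 to 0.09 in *β-cat LOF* and −0.21 to −0.09 in the β-cat controls. The value of 0.35 belonged to *Tbx1 LOF* replicate 2, and without that array the median was −0.38 and *Zic2* and *Pax6* passed (lowest adjusted p 0.0141), whereas without replicate 1 of *Tbx1 LOF* it was −0.17. Among the 21 genes past p and fold, *Nkx2-9* had the largest difference (−1.43), and *Rfx4* was at −1.20, both chosen after their values were seen. Somite markers had 4 of 17 toward *β-cat LOF* (*Pax9*, *Myf5*, *Pax1* and *Meox1*), and 2 of 17 without control replicate 2. Their median was −0.47 within arrays 1 and 2 and −0.04 within arrays 3 and 4. *Myf5* is also on the branchiomeric list and *Hes5* on the Notch list, and *Pax9*, *Pax1* and *Sox2* are also pharyngeal endoderm markers. Of 21 endoderm markers, 4 differed toward *β-cat LOF* (*Pax9*, *Sox2*, *Cdh1* and *Pax1*) and 1, *Hhex*, the other way, at a median of −0.05. Without control replicate 2 these counts were 3 and 1. The share of neural, somite and endoderm tissue in the pools was not tested.

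**Figure D3:**
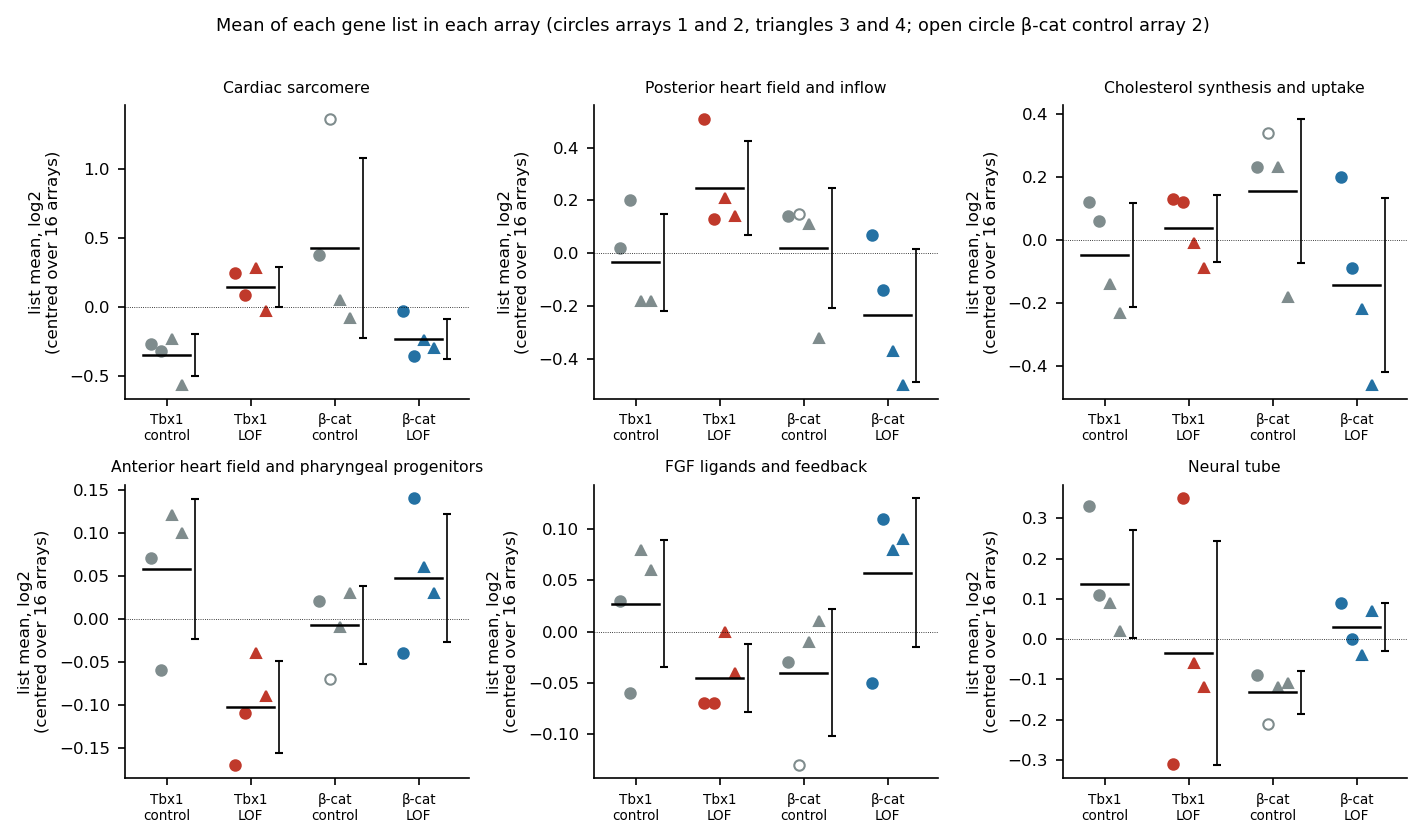
Mean of 6 gene lists in each array (y axis, log2, each gene centred on its mean over the 16 arrays) for the 4 groups (x axis), with symbols, lines and ±1 SD bars as in the plot of gene levels. The sarcomere mean of β-cat control array 2 is 1.37, against −0.08 to 0.38 in the other 3 controls, whereas the posterior heart field list has its low control in array 4 (−0.32).

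Some lists had few or no members past the unadjusted threshold. Of 24 canonical Wnt targets 1 differed, *Bambi* (0.35, SE 0.13, toward *Tbx1 LOF*), with a median of −0.03. The feedback gene *Axin2* differed by −0.06 (95% interval −0.26 to 0.14) and *Lef1* by −0.05 (−0.25 to 0.16). Cell cycle (33), p53 and apoptosis (21), ribosomal protein (36), Hox (26), Hedgehog (15) and interferon (23) genes had 0 members at an unadjusted p under 0.05 in limma, and medians from −0.11 to 0. *Ccnd1*, cyclin D1, differed by −0.03 (−0.17 to 0.12). Macrophage and platelet markers (17) also had 0. Erythroid markers had 0 of 13, but all 13 differences were positive, at a median of 0.17, or 0.03 without *β-cat LOF* replicate 2, with 3 of 13 higher in *Tbx1 LOF*. Endothelial markers had 3 of 24 toward *Tbx1 LOF* and 1 the other way, above the 2.62% and 2.17% of all genes, but 0 and 1 without control replicate 2. Neural crest markers had 3 of 24 toward *Tbx1 LOF* and 4 the other way, also above those shares, and 3 and 2 without control replicate 2.

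Genes were then sought that changed alike in both mutants. For the mean of the 2 changes, limma called 0 genes at an adjusted p under 0.05 (0%, lowest 0.243), and 218 were higher and 146 lower at an unadjusted p under 0.05 (1.09% and 0.732%). The 15 genes with the same sign and an unadjusted p under 0.05 in each experiment had mean changes of at most 0.49 in size. Their number was 32 with the replicate block, 28 with a term for arrays 1 and 2 against 3 and 4, 28 with array weights, 33 without *Tbx1 LOF* replicate 2, 24 without *β-cat LOF* replicate 2 and 8 without β-cat control replicate 3. In *Tbx1 LOF* 1.58% of all genes were higher and 1.4% lower, and in *β-cat LOF* 2.03% each way. Unrelated changes at those shares would give a number of the same order as the 15, so the genes named below are a description. Only *2410018L13Rik*, singled out after its values were seen, had a mean change over 1.5-fold (0.61, 1 gene of all, 0.00502%), and its β-cat change did not have an unadjusted p under 0.05.

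*Hgf*, the ligand of the Met receptor that guides migrating muscle precursors, had the largest mean reduction of those 15. It read 8.20, 8.12, 7.94 and 8.26 in *Tbx1 LOF* and 8.66, 8.36, 8.5 and 8.41 in its controls. It read 8.21, 8.38, 8.41 and 7.87 in *β-cat LOF* against 8.81, 8.54, 8.99 and 9.06 in controls, so both mutants lay below all of their controls. The changes were −0.35 and −0.63, with a mean of −0.49 (SE 0.09, adjusted p = 0.369), and −0.54 without control replicate 2. Of all genes, 2 had both mutants below all controls (0.01%), *Hgf* and *Gm4983*, and 3 had both above (0.015%), *9930038B18Rik*, *Adam39* and *Smok2a*. *Adam39* was dim and its *Tbx1* groups barely apart, at 4.88 to 4.95 in *Tbx1 LOF* against 4.82 to 4.88 in controls. Opposite separation was seen in 22 genes above in *Tbx1 LOF* and below in *β-cat LOF* (0.11%), *Nppa*, *Tnni3*, *Smpx*, *Myl4* and *Bves* among them, and in 8 genes the other way (0.0401%), *Prkcb* and *Sox10* among them. *Sox10* was barely apart, since its highest *Tbx1 LOF* array and its lowest *Tbx1* control both read 9.32. Its lowest *β-cat LOF* array read 9.19 against 9.16 in the highest β-cat control.

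*Aqp7*, a channel for water and glycerol, had the smallest p of the shared changes. It read 7.90, 7.65, 7.82 and 7.64 in *Tbx1 LOF* against 7.10, 6.99, 7.16 and 7.28, and 7.58, 7.60, 7.57 and 7.71 in *β-cat LOF* against 7.58, 7.58, 7.36 and 7.14. The *Tbx1* groups were separate and the β-cat groups overlapped, with changes of 0.62 (SE 0.09, adjusted p = 0.0446) and 0.20 and a mean of 0.41 (SE 0.07). *Ebf3*, a transcription factor of branchiomeric muscle progenitors, was lower in both, at −0.32 and −0.17. Its 4 *Tbx1 LOF* arrays read 10.32, 10.57, 10.50 and 10.49 against 10.90, 10.66, 10.83 and 10.75, and its β-cat arrays 10.75, 10.82, 10.83 and 10.74 against a range of 10.79 to 11.05, which overlapped. *Aldh1a1*, a retinoic acid synthesis enzyme chosen after its values were seen, was at −0.27 and −0.49, with a mean of −0.38 (SE 0.09).

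The others lower in both were *Vcpkmt*, a lysine methyltransferase (−0.39 and −0.41), *Gm4983*, *Prdm16*, a transcriptional regulator, *Gm2027* and *Mgst1*, a glutathione transferase. The others higher in both were *Eapp*, an E2F-associated phosphoprotein (0.52 and 0.35), *3110053B16Rik*, *Tex24*, *Smok2a*, *9930038B18Rik*, *Kcnip2*, a potassium channel partner, and *Olfr1324*. Of these 15 genes, *Ebf3* was the 1 member of the gene lists. Among the progenitor genes *Tbx1*, *Fgf10*, *Gfra1* and *Nrg1* had a lower mean change at an unadjusted p under 0.05, but for each the reduction was in *Tbx1 LOF*, and their *β-cat LOF* changes ran from −0.04 to 0.14.

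**Figure D4:**
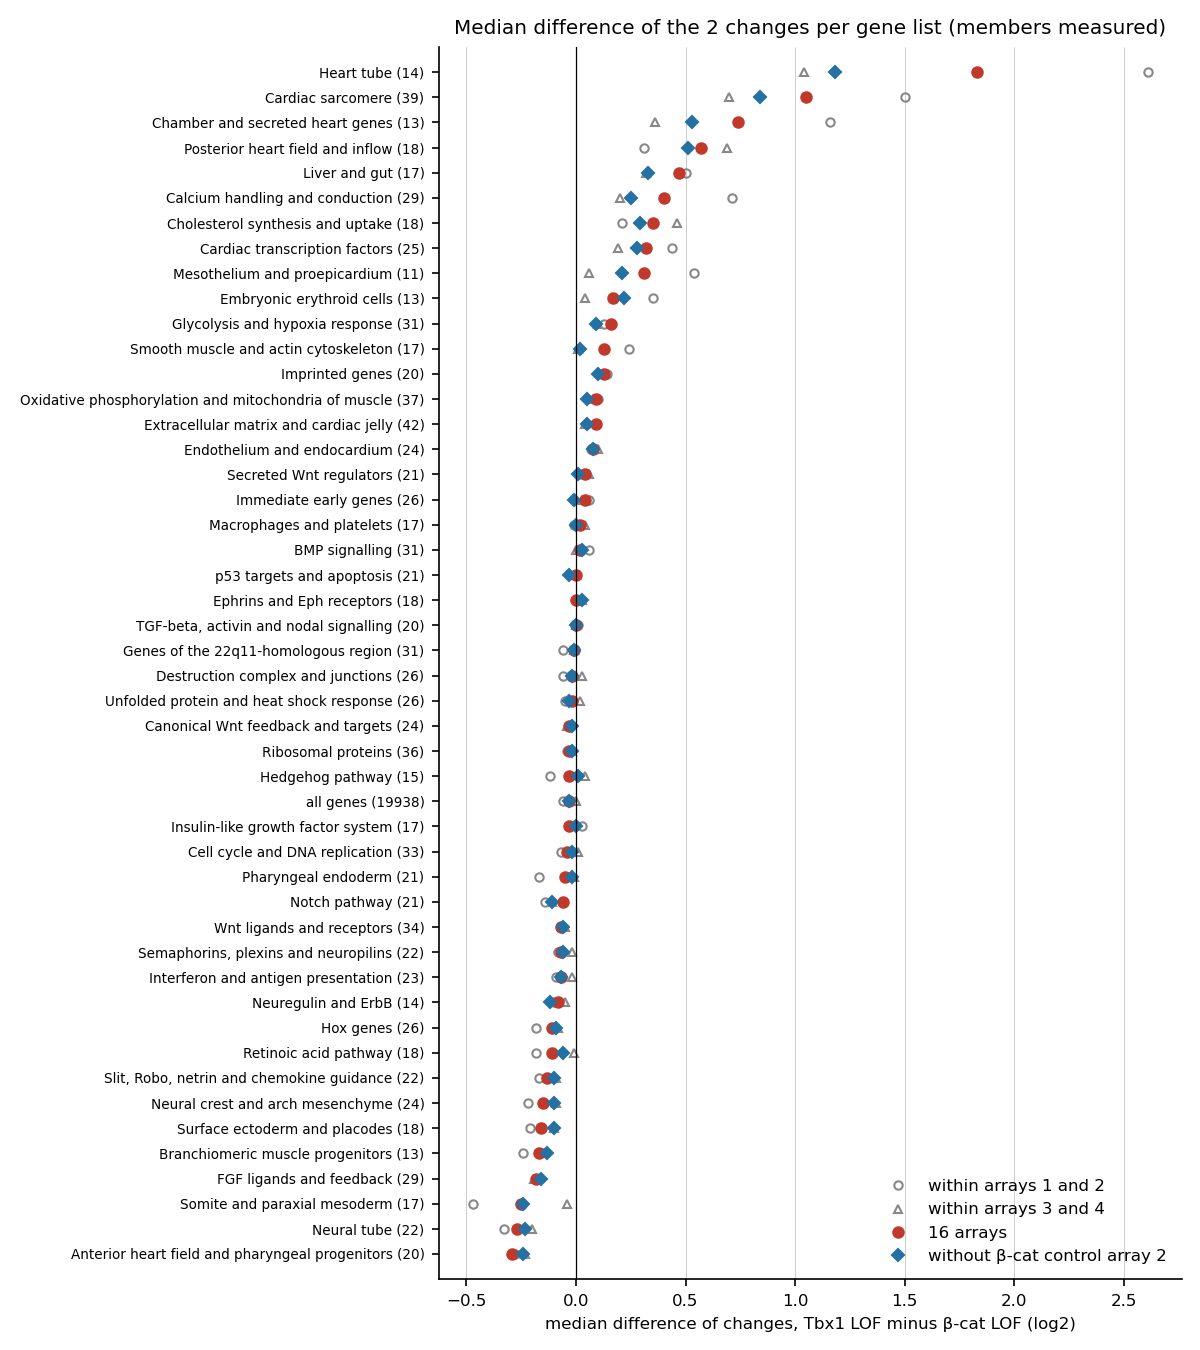
Median difference of the changes (x axis, log2, *Tbx1 LOF* minus *β-cat LOF*) for the gene lists and all genes (y axis, number of members measured), over 16 arrays (red circles), without β-cat control array 2 (blue diamonds) and within arrays 1 and 2 (open circles) or 3 and 4 (open triangles). The heart tube, sarcomere, chamber and calcium lists shrink without the array and in arrays 3 and 4, whereas the posterior heart field and cholesterol lists are largest in arrays 3 and 4.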

How the data were processed

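RNA from the dissected arches was hybridised to Affymetrix Mouse Gene ST 1.0 arrays. The deposited values are log2 intensities per probe set that the authors made with RMA in the oligo package. The methods also name ComBat and blocking for batch, but no batch is given in the labels, and whether the deposited values were batch-corrected is not stated. Array number and depth of signal limit the precision, since arrays have no counts.

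Of 35556 probe sets, 21789 carried 1 gene symbol in the platform annotation, 1621 several and 12146 none. Those with 1 symbol were averaged per gene, giving 19938 genes. limma 3.58.1 in R 4.3.3 fitted the 4 groups of 4 arrays (12 residual degrees of freedom), with Benjamini-Hochberg adjustment over all genes. Contrasts were each change, their difference and their mean. The unadjusted p under 0.05 is the threshold of the methods, and the fold over 1.5 is the limit the study set for the genes it plotted. On simulated data the fit recovered 41.8% of genes with a log2 difference of 0.5 and 97.0% of those at 1.0. No such share was worked out for single gene lists. The lists that diverged most were noisier: half-way values of the residual SD were 0.391 in sarcomere and 0.666 in heart tube genes. For the typical gene it was 0.121. The simulated shares therefore do not tell how many genes of those lists would be detected.

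Named genes were the 12 with the smallest p among those past p and fold in each direction of the difference, and the same-sign genes with p under 0.05 in each experiment. For each list up to 4 members of smallest p were named, and further ones were chosen after their values were seen. The promoter rule asked for genes at an adjusted p under 0.05, which none met, so those shown were also chosen after. The members and lists were chosen with earlier results of these data known. The other 8 arrays were used only in the fit of all 24. Changes tried were array weights, a replicate block, other normalizations, probe set choice, a filter on dim genes, leaving out each array, and a term for array number. Python 3.11.15 with pandas 2.3.3 and matplotlib 3.10.9 made the summaries and plots.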

Additional observations from a re-analysis of the deposited data

Results flagged for a closer look

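In 7 of 168 groups of 4 values, 1 array lay far from the other 3, and chance alone flags about 1 group in 20. Control replicate 2 of the β-cat experiment had a mean of 1.56 over the chamber genes, against −0.02 to 0.22 in the other 3 controls. *β-cat LOF* replicate 4 had a mean of −0.18 over the cardiac transcription factors, against −0.06 to −0.05. β-cat control replicate 4 had a posterior heart field mean of −0.32, against 0.11 to 0.15. *Tbx5* read 10.57 in *Tbx1* control replicate 2, against 10.24 to 10.28. *Zic2* read 8.23 in *β-cat LOF* replicate 2, against 8.80 to 8.82. *Plagl1* read 12.28 in *Tbx1 LOF* replicate 1, against 11.88 to 11.94. *Ecm1* read 9.27 in *Tbx1* control replicate 3, against 8.98 to 9.01.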

How the results depend on the processing

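The difference was recomputed in 26 other ways, 25 of them planned. All 24 named genes of the difference kept their sign in all 26. These genes were chosen by p and fold in the main fit, and the settings reuse its arrays, so this was nearly fixed in advance. The count of genes at an adjusted p under 0.05 for the difference, 0 over 16 arrays, was 10 with all 24 arrays in 1 fit, 1 with array weights and 59 with a term for arrays 1 and 2 against 3 and 4 and no β-cat control replicate 2, a setting chosen after seeing the data. With the replicate number as a block it was 2. Own-number correlations ran from 0.157 to 0.494 in the *Tbx1* experiment and 0.0889 to 0.479 in the β-cat experiment, and 1 of 4 and 2 of 4 mutant arrays correlated best with the control of their own number, so every pair exceeded 0.1 in the *Tbx1* experiment but not in the β-cat experiment, and the pairing was kept out of the difference. With the block, genes past p and fold numbered 240 against 224, the opposite-sign genes higher in *Tbx1 LOF* 155 against 83, and the same-sign genes 32 against 15. Leaving out 1 array gave 0 to 39, with 39 without β-cat control replicate 4, 9 without its replicate 2, 2 without *Tbx1 LOF* replicate 2, and 0 in the other 13. Genes changed alike at an adjusted p under 0.05 numbered 0, but 1 with all 24 arrays, and 0 to 1 on leaving out 1 array, with 1 without *Tbx1 LOF* replicate 2. Genes past p and fold numbered 224, and 138 (without β-cat control replicate 2) to 326 (without replicate 4). Opposite-sign genes higher in *Tbx1 LOF* numbered 83, and 33 (without *Tbx1* control replicate 4) to 145 (without β-cat control replicate 4), those lower 17, and 10 (without β-cat control replicate 2) to 50 (without *Tbx1 LOF* replicate 2). Same-sign genes numbered 15, and 8 (without β-cat control replicate 3) to 33 (without *Tbx1 LOF* replicate 2). The causes were not tested. Sarcomere genes varied more between replicates (residual SD 0.391 in the median) than the median gene (0.121).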
